A study of Homo sapiens with 8 samples.

Results

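The 10 genes ACLY, ACACA, FASN, SCD, FADS1, FADS2, ELOVL1, ELOVL5, ELOVL6 and ACSL4, which encode enzymes that make, desaturate, elongate and activate fatty acids, were examined in leukemia cells after knockdown of the splicing regulator PTBP1. Their transcripts were found by gene name in GENCODE version 44 and summed, and all 10 were among the 62639 genes of the table. The cells were MOLM-13, an established human acute myeloid leukemia line. They carried a lentiviral, doxycycline (dox) inducible shRNA, either 1 against PTBP1 (shPTBP1, PTBP1 KD) or a scrambled control (shControl). Both groups had 9 days of dox. The groups thus shared the virus, the drug and the vector's reporters (a constant mCherry, and a ΔLNGFR that dox switches on), and a single shRNA sequence stood for the knockdown. There were 4 biological replicates a group, and whether they came from separate transductions was not given in the sources used here, so p-values measure the spread between these 8 samples. RNA was read as nanopore cDNA.

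Fatty acid synthesis begins in the cytosol, where ATP citrate lyase (ACLY) cuts citrate into acetyl-CoA, acetyl-CoA carboxylase (ACACA) makes malonyl-CoA, and fatty acid synthase (FASN) builds palmitate. Elongases of the ELOVL family add further carbons in the endoplasmic reticulum, and the desaturases SCD, FADS1 and FADS2 place double bonds. Acyl-CoA synthetases such as ACSL4 attach CoA so that a fatty acid can enter membranes. Many of these genes are known targets of the transcription factors SREBP and LXR.

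The libraries held between 1528449 and 1613342 counts, and 12322 to 12589 genes were detected in each. PTBP1 had 10, 15, 13 and 23 counts in shPTBP1 replicates 1 to 4 and 65, 90, 64 and 78 in the shControl replicates (log2 fold change -2.26, SE 0.22; adjusted p = 7.18e-05 in edgeR). Its paralog PTBP2 had 185 to 199 counts in PTBP1 KD libraries and 1 to 4 in controls. Of 7597 genes that could be tested, PTBP1 KD lowered 242 (3.19%) and raised 179 (2.36%), at a Benjamini-Hochberg adjusted p under 0.05 in the quasi-likelihood test of edgeR. The lower calls made up 57.5% of all calls, against 67.8% in limma-trend on log2(CPM + 1). In limma-trend, CPM is the count divided by the library total, scaled to 1000000. Levels in CPM given below divide instead by the library's total over tested genes, adjusted by the TMM scaling of edgeR, unless stated. Of 10 markers of myeloid leukemia all had counts and 7 passed the count filter; their summed level was 801 to 914 CPM in PTBP1 KD libraries and 713 to 774 CPM in controls, without overlap. LYZ alone was at 282 to 428 against 247 to 307 CPM, and without it the sums of the other 9 markers overlapped, at 486 to 519 against 448 to 525 CPM. Of the 7 tested, 0 were called in edgeR, and the log2 fold change of 2 was below 0. The groups did not overlap for 1 of the 7, which was not LYZ, against 12.7% of all genes. SPI1 had 1 count in all libraries together, with all 4 of its annotated transcripts in the table. Of 10 markers of other cell types 5 had any count, with CD3E, CD3D, MS4A1 and HBB among those at 0, and their summed level was 31.6 to 41.0 CPM against 32.5 to 38.7 CPM, nearly all from PECAM1. The part of the marker shift in the results that follow was not tested.

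The test called 1 of the 10 genes. ELOVL5, an elongase of polyunsaturated fatty acids, rose 1.22-fold after PTBP1 KD, and 0 of the genes tested were called lower. This was 1 of the 8 genes with enough counts to test, beside 5.54% of all genes called in either direction. Of those 8 genes, 6 had a log2 fold change below 0 (75%, against 50.05% of all genes), with a median of -0.18 against -0.00014 over all genes. An unadjusted p under 0.05 was reached by 2 of the 8, against 19.2% of all genes, and the groups did not overlap for 1 of the 8, against 12.7%. FASN and ELOVL6 were below the count filter.

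**Figure D1:**
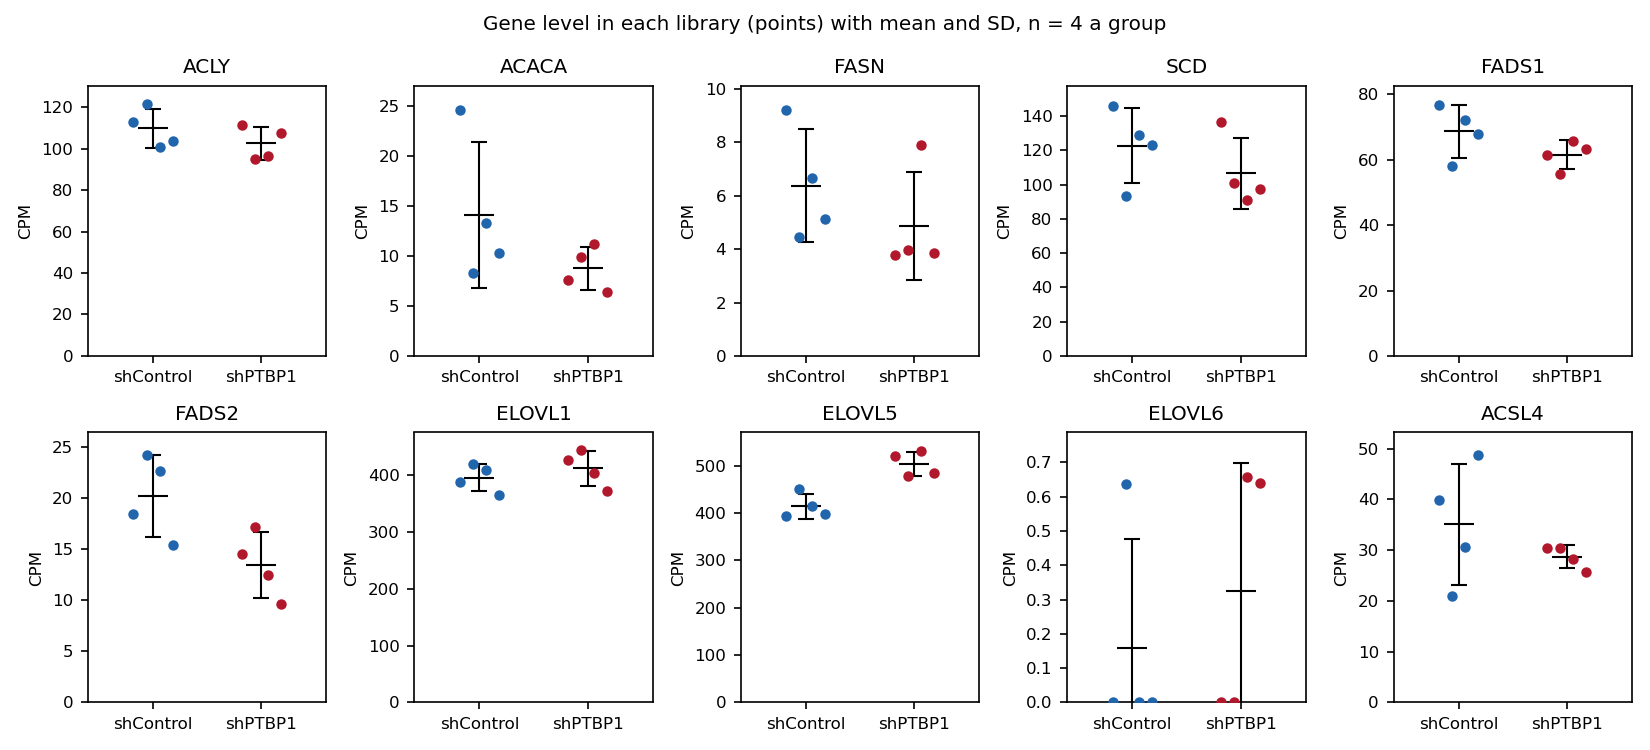
Level of each of the 10 genes in CPM (vertical axes, from 0), with 1 point per library and the mean and SD of 4 libraries a group. ELOVL5 is the gene whose groups do not overlap, at 479 to 531 CPM after PTBP1 KD and 393 to 450 CPM in controls.

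Per length of its most counted transcript, ELOVL1 had the highest level in controls (270 ± 16.3 CPM per kb, SD, n = 4), followed by ELOVL5 (150 ± 9.29 CPM per kb). ACLY (25.4 ± 2.19 CPM per kb) and SCD (23.4 ± 4.13 CPM per kb) came next and lay within each other's spread, and FADS1 was at 15.7 ± 1.84 CPM per kb. ACSL4 (6.98 ± 2.37 CPM per kb) and FADS2 (6.53 ± 1.30 CPM per kb) could not be told apart by their spread, nor could ACACA (1.48 ± 0.762 CPM per kb) and FASN (0.752 ± 0.250 CPM per kb). ELOVL6 was lowest, at 0.0242 ± 0.0485 CPM per kb. The order after PTBP1 KD was the same. Whether 1 count stands for 1 long read is not given in the sources used here. The order of the counts themselves, without division by length, differed at the top. In CPM, ELOVL5 and ELOVL1 lay within each other's spread in controls (414 ± 25.7 and 396 ± 23.9 CPM), ELOVL5 was above ELOVL1 after PTBP1 KD (479 to 531 against 373 to 445 CPM), and SCD had a higher mean than ACLY in both groups, within its SD. Long transcripts such as those of ACACA (9554 bases) and FASN (8464 bases) depend most on how complete the cDNA was.

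ACLY lies on chromosome 17 (41866917 to 41930542, minus strand, GRCh38). It had 176, 144, 147 and 168 counts in shPTBP1 replicates 1 to 4, and 184, 191, 151 and 162 in shControl replicates 1 to 4. The groups overlapped, at 103 ± 7.98 and 110 ± 9.44 CPM (SD, n = 4 each), and the log2 fold change was -0.10 (95% interval -0.29 to 0.10, edgeR adjusted p = 0.621).

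ACACA, which sets the rate of the pathway by making malonyl-CoA, lies on chromosome 17 (37084992 to 37406836, minus strand). It had 12, 15, 17 and 10 counts after PTBP1 KD and 40, 13, 20 and 16 in controls. The high control was replicate 1, and 2 of the other controls lay within the PTBP1 KD range. The log2 fold change was -0.69 (interval -1.43 to 0.05, edgeR adjusted p = 0.295), and -0.27 without shControl replicate 1. In that library 28 of the 40 counts stood on 1 transcript, ACACA-245, which begins inside the gene and had 0 counts in every other library. With such all-or-none transcripts left out, the log2 fold change was -0.16.

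FASN, on chromosome 17 (82078338 to 82098294, minus strand), had 6, 6, 12 and 6 counts after PTBP1 KD and 15, 7, 10 and 8 in controls. Each group had a library inside the range of the other, at 4.88 ± 2.02 and 6.37 ± 2.11 CPM (SD, n = 4 each; exact permutation p = 0.314). A difference of this size was not detectable at this depth.

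SCD, the desaturase that turns stearate into oleate, lies on chromosome 10 (100347233 to 100364826, plus strand). It had 216, 153, 138 and 152 counts after PTBP1 KD and 237, 147, 193 and 192 in controls. The highest PTBP1 KD library lay above 3 of the controls. The levels were 106 ± 20.6 and 123 ± 21.7 CPM, with a log2 fold change of -0.20 (interval -0.51 to 0.10, edgeR adjusted p = 0.482).

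FADS1 and FADS2, the delta-5 and delta-6 desaturases of polyunsaturated fatty acids, are neighbours on chromosome 11 on opposite strands (FADS1 61799627 to 61829318, minus; FADS2 61792980 to 61867354, plus). Their annotated spans overlap, yet the transcripts of both that had counts shared 0 exonic bases. FADS1 had 97, 84, 100 and 99 counts after PTBP1 KD and 125, 91, 108 and 106 in controls, a log2 fold change of -0.16 (interval -0.40 to 0.08, edgeR adjusted p = 0.474). FADS2 had 23, 26, 19 and 15 counts after PTBP1 KD and 30, 38, 34 and 24 in controls. Only 1 control library of FADS2 fell inside the PTBP1 KD range. Its levels were 13.5 ± 3.20 and 20.2 ± 4.01 CPM, and the log2 fold change of -0.58 (interval -1.06 to -0.10) had an unadjusted p of 0.0212 in edgeR and did not pass after adjustment (0.167). The gene FEN1, on the same strand, overlaps the annotated FADS2 span and had 3252 counts over the 8 libraries against 209 for FADS2. The FADS2 transcripts with counts began at 61816256 or beyond, whereas the annotated span begins at 61792980. How reads were divided between FEN1 and FADS2 was not tested.

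ELOVL1, the elongase of saturated very long chains, lies on chromosome 1 (43363398 to 43368074, minus strand). It had 674, 673, 614 and 583 counts after PTBP1 KD and 633, 660, 613 and 570 in controls. The groups covered nearly the same range, at 412 ± 30.7 and 396 ± 23.9 CPM. The log2 fold change was 0.06, with an interval of -0.09 to 0.21 (edgeR adjusted p = 0.723).

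ELOVL5 lies on chromosome 6 (53267398 to 53349179, minus strand). It had 824, 725, 806 and 756 counts after PTBP1 KD and 640, 707, 621 and 621 in controls. Every PTBP1 KD library was above every control, at 504 ± 26.0 against 414 ± 25.7 CPM. The log2 fold change of 0.28 had an SE of 0.07 and an interval of 0.14 to 0.42 (adjusted p = 0.0241 in edgeR). The call was close to the threshold: without shPTBP1 replicate 3 the adjusted p was 0.0812, and without shControl replicates 1, 3 or 4 it was 0.0650, 0.0534 or 0.0745. In limma-trend on log2(CPM + 1) it was 0.0602.

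ELOVL6, the elongase of palmitate to stearate, lies on chromosome 4 (110045846 to 110199199, minus strand). It had 1 count in shPTBP1 replicates 3 and 4 and in shControl replicate 2, and 0 in the other 5 libraries, each of which allows up to 1.84 to 2.00 CPM. No difference was detectable at this depth.

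ACSL4, which favours arachidonate and is known for its part in ferroptosis, lies on chromosome X (109624244 to 109733403, minus strand). It had 48, 46, 43 and 40 counts after PTBP1 KD and 65, 33, 46 and 76 in controls. The controls spread on both sides of the PTBP1 KD libraries, at 35.1 ± 11.9 against 28.7 ± 2.26 CPM. The log2 fold change was -0.29 (interval -0.75 to 0.17, edgeR adjusted p = 0.505).

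PTBP1 represses exons by binding pyrimidine-rich RNA near splice sites, so the isoforms of these genes were examined next, each as its percentage among all counts of the gene. Of 5464 transcripts tested in all genes with diffSpliceDGE of edgeR, 61 (1.12%) changed at an adjusted p under 0.05 and by at least 10 percentage points, and 99 (1.81%) passed with no minimum change. Of the 10 genes, ACLY, ACSL4 and ELOVL5 had at least 2 transcripts that passed the filter, 9 transcripts in all, and 0 were called by diffSpliceDGE or by limma's diffSplice. An unadjusted p under 0.05 was reached by 1 of the 9, ELOVL5-207 (adjusted p = 0.185 in diffSpliceDGE), against 6.59% of all transcripts. In addition, 16 isoforms with a mean share of at least 10% in either group were each compared between 4 and 4 libraries with an exact permutation test, whose smallest possible p is 0.0286, and 0 passed after adjustment. ELOVL1, FADS1 and FASN had at least 95.2% of their counts on 1 transcript in both groups, and SCD has 1 annotated transcript.

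**Figure D2:**
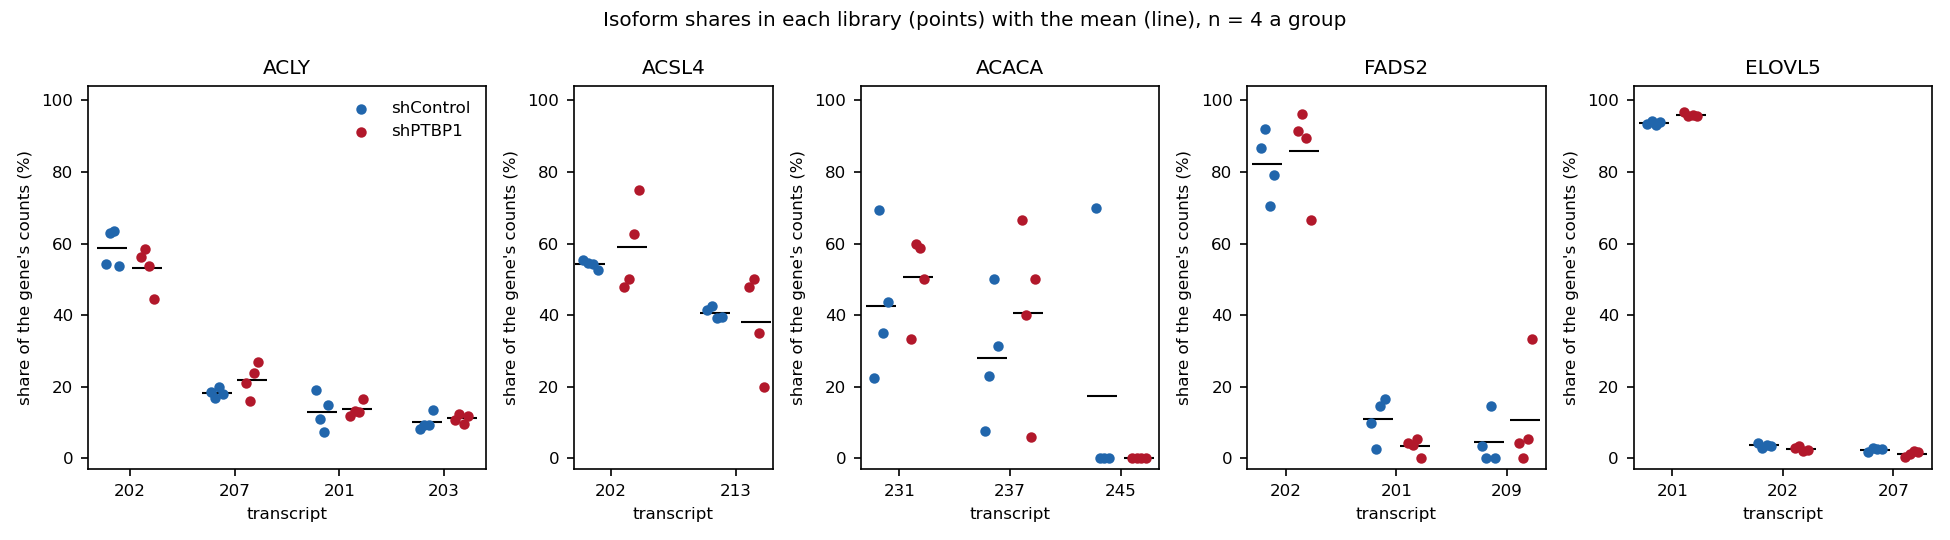
Share of the gene's counts (percent, vertical axes) on each transcript of ACLY, ACSL4, ACACA, FADS2 and ELOVL5, with 1 point per library and the mean of 4 libraries as a line. The groups overlap for the isoforms shown except ELOVL5-201 (95.9% against 93.7%), and ACACA-245 is seen only in 1 control library.

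The 4 ACLY isoforms combine a pair of splice choices. The first is a coding exon of 30 bases (chr17:41896620-41896649, hg38, minus strand), present in ACLY-201 and ACLY-207 (3303 coding bases) and absent from ACLY-202 and ACLY-203 (3273 coding bases). The second is a pair of acceptor sites 4 bases apart (chr17:41913897-41913900), which leaves the coding length the same. The sequences are shown because these letters are what tells the isoforms apart; capitals mark the 30-base exon between its introns, and the 4 bases between the acceptors.

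ACLY exon: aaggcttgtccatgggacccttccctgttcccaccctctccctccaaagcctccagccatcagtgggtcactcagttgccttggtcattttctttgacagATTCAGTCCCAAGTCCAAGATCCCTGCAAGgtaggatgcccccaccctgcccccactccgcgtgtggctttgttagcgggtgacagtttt

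ACLY acceptor pair: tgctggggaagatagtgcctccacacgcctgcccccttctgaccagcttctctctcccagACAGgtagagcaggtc

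The 30-base exon was in 58 of 176, 42 of 144, 54 of 147 and 73 of 168 counts after PTBP1 KD, and in 69 of 184, 53 of 191, 41 of 151 and 53 of 162 counts in controls. Its share was 35.6 ± 6.09% against 31.3 ± 4.84% (SD, n = 4 each), and the groups overlapped (exact permutation p = 0.286, two-sided). The longer form of the acceptor pair took 33.1 ± 4.26% against 28.4 ± 2.46% (exact permutation p = 0.114). The first difference was smaller than the SD of either group; the second was larger than both SDs, yet its groups overlapped and it did not pass the test. ACLY-202, without the exon, was the main form in both groups, at 53.2 ± 6.0% and 58.6 ± 5.3%.

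ACSL4-202 and ACSL4-213 encode the same coding length of 2010 bases and differ by a 3-base acceptor choice (chrX:109683373-109683375, hg38, minus strand) and at their ends. Capitals mark the 3 bases that the longer exon adds.

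ACSL4 acceptor pair: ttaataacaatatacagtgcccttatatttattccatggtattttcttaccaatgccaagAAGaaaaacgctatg

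The longer form took 50%, 50%, 37.2% and 21.1% in shPTBP1 replicates 1 to 4 and 42.9%, 43.8%, 41.9% and 45.2% in the controls. The PTBP1 KD libraries lay on both sides of the controls and varied more, 39.6 ± 13.7% against 43.4 ± 1.42% (exact permutation p = 0.771). Each library rests on 32 to 73 counts.

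ELOVL5 was nearly all ELOVL5-201, which has 897 coding bases. A minor form, ELOVL5-207, leaves out a 125-base coding exon (chr6:53273220-53273344, hg38, minus strand), here in capitals between its introns.

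ELOVL5 exon: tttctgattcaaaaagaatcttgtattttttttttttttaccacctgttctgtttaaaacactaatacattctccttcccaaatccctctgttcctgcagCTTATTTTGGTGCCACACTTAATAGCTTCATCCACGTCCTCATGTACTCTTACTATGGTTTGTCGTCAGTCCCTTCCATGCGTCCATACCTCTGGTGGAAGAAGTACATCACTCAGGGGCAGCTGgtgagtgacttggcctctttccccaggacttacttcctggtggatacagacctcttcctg

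ELOVL5-207 had 3, 8, 16 and 13 counts after PTBP1 KD and 11, 20, 17 and 16 in controls. Of the counts that span the exon, 98.7 ± 0.735% carried it after PTBP1 KD and 97.4 ± 0.516% in controls (exact permutation p = 0.0571), with overlap between the groups. The share of ELOVL5-201 in the gene was 95.9 ± 0.5% against 93.7 ± 0.5% and did not overlap (exact permutation p = 0.0286, adjusted p = 0.457 over the 16 isoforms). The rise of the gene was carried by ELOVL5-201, with 797, 693, 772 and 723 counts after PTBP1 KD against 598, 666, 579 and 584 in controls, while the short ELOVL5-202 had 17 to 24 against 21 to 28.

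ACACA and FADS2 had few counts per isoform. ACACA-231 and ACACA-237, which start at different first exons and encode 7038 and 7149 bases, took 50.5 ± 12.3% and 40.6 ± 25.6% of ACACA after PTBP1 KD, and 42.6 ± 19.8% and 28.0 ± 17.7% in controls. FADS2-202 took 85.9 ± 13.1% of FADS2 after PTBP1 KD and 82.1 ± 9.3% in controls. FADS2-201, which starts upstream of it, took 3.4 ± 2.3% and 11 ± 6.2%, from 3 and 13 counts. In all 4 isoforms the groups overlapped and the exact permutation test was not passed (p = 0.514, 0.486, 0.657 and 0.114), although the difference of FADS2-201 was larger than both SDs.

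The other enzymes of cytosolic synthesis, elongation and activation formed a list of 26 genes, of which 17 were tested. They held 1 gene called higher and 0 called lower (2.36% and 3.19% of all genes), with a median log2 fold change of -0.02. The gene that rose was HACD2, a dehydratase of the elongation cycle that the ELOVL enzymes begin. It had 184, 153, 159 and 202 counts after PTBP1 KD and 128, 121, 110 and 99 in controls. All PTBP1 KD libraries were above all controls, at 113 ± 12.8 against 73.1 ± 6.79 CPM (log2 fold change 0.63, SE 0.10; adjusted p = 0.00403 in edgeR), and all its counts were on HACD2-201. SCD5, a second stearoyl-CoA desaturase, was at 10.1 ± 4.89 against 15.3 ± 3.19 CPM (adjusted p = 0.298 in edgeR), and ACSL1, an acyl-CoA synthetase, at 16.8 ± 4.85 against 10.5 ± 2.52 CPM (adjusted p = 0.172 in edgeR).

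**Figure D3:**
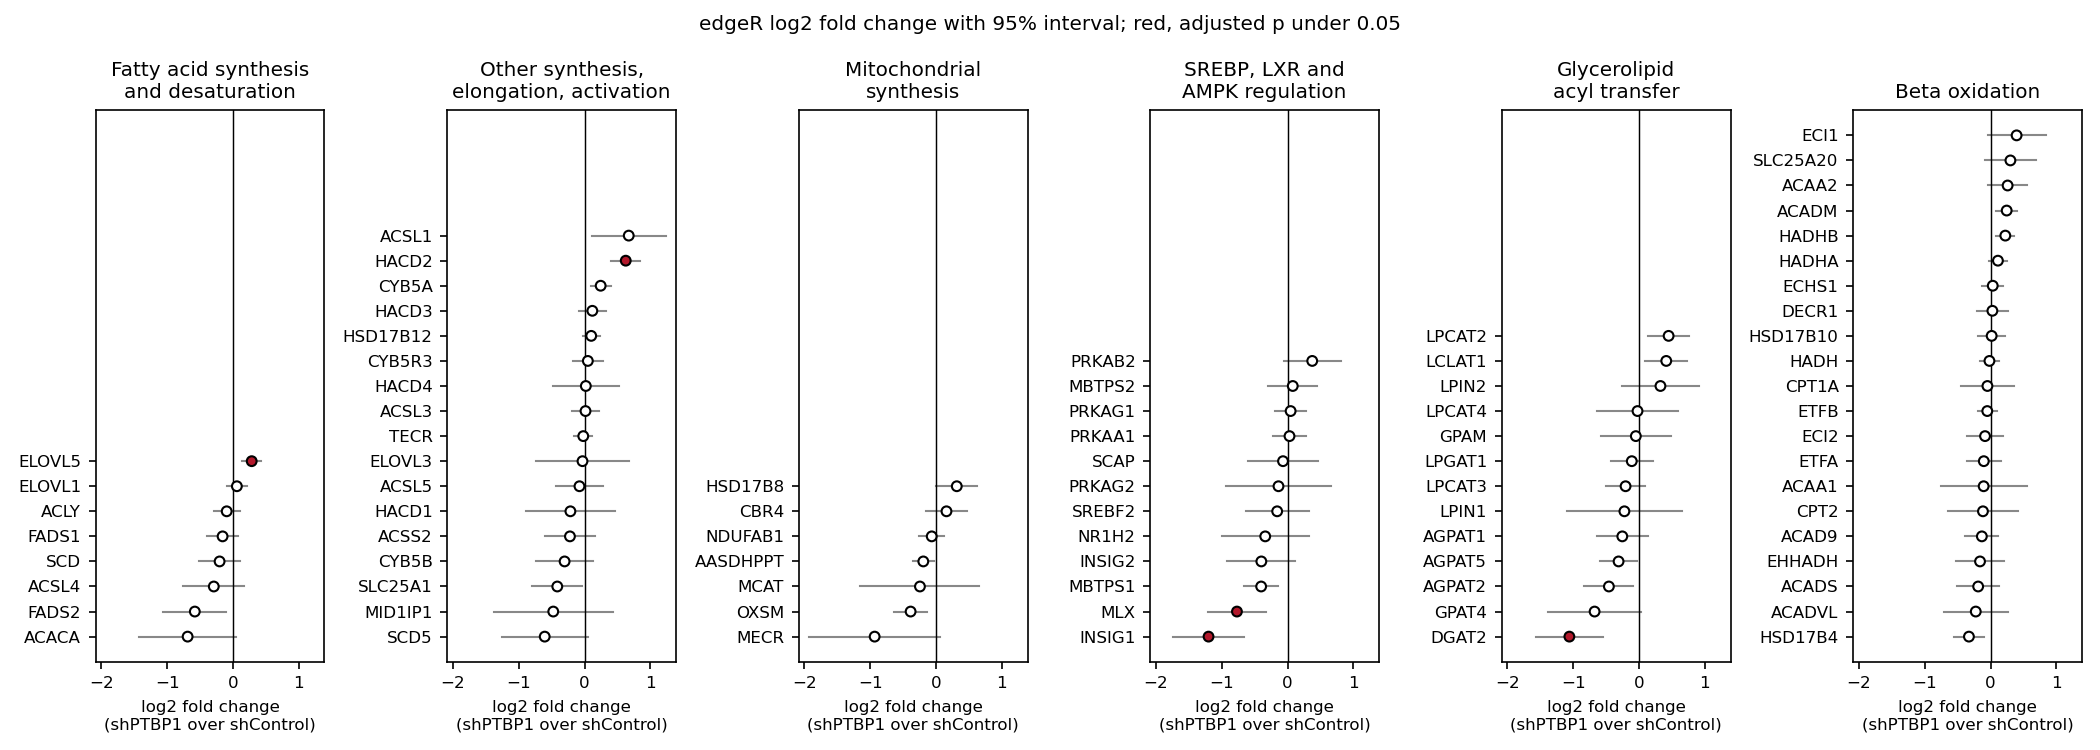
Log2 fold change of PTBP1 KD over control (horizontal axes) for genes tested among the 10 enzymes and in each related list, with the 95% interval of edgeR as a line and genes past an adjusted p of 0.05 in red. ELOVL5 and HACD2 are the red points above 0, and MLX, INSIG1 and DGAT2 those below; MLX is above 0 when its retained-intron transcript is left out.

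TECR, the reductase that completes the elongation cycle, did not pass the test as a gene (447 against 453 CPM), and 1 of its isoforms did. This isoform was named after its values were seen. Among 39 transcripts of 16 pathway genes tested, 0 were called with the minimum of 10 percentage points and 2 passed without it (1.81% of all transcripts), TECR-216 and a transcript of HSD17B4, both annotated as targets of nonsense-mediated decay. TECR-216 carries an extra exon of 67 bases (chr19:14545114-14545180, hg38, plus strand), which is in capitals because it is the sequence whose share rose after PTBP1 KD.

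TECR exon: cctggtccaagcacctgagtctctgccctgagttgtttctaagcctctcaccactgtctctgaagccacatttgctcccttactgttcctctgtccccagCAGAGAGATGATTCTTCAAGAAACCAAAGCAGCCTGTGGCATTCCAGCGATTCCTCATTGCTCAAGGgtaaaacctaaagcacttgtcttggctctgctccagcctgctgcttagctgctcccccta

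TECR-216 had 17, 22, 23 and 17 counts after PTBP1 KD and 1, 2, 3 and 5 in controls. Every PTBP1 KD library was above every control. The exon was in 79 of 2759 spanning counts after PTBP1 KD (2.86%, exact Clopper-Pearson 95% interval 2.27 to 3.56%) and in 11 of 2831 in controls (0.389%, interval 0.194 to 0.694%). For its share in each library the exact permutation p was 0.0286, the smallest possible. After adjustment over the 5 splice events examined it was 0.143. The isoform share was 2.87 ± 0.54% against 0.391 ± 0.24% (SD, n = 4 each; diffSpliceDGE adjusted p = 6.69e-07, and 3.96e-05 at most with 1 library left out). It has 177 coding bases, against 924 for TECR-201. The HSD17B4 transcript took 13.1 ± 2.80% against 6.03 ± 2.21% (adjusted p = 0.0473 in diffSpliceDGE, and up to 0.427 with 1 library left out).

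The introns just upstream of these exons were compared with 237485 acceptors of protein-coding genes in GENCODE. In the 50 bases before the exon, pyrimidines made up 72% for TECR, 66% for ELOVL5 and 62% for the 30-base exon of ACLY, against a median of 60%, and 92.1%, 77.5% and 62.1% of acceptors had the same share or less. The letters TCTT, read in the sense of the RNA over the 100 bases before the exon, were found once for ACLY and once for ELOVL5. They were not found for TECR, and are in 60.6% of all such windows. CTCTCT was in none of the 3, and is in 8.99% of windows. These windows leave out the exon and the bases after it. There the printed TECR and ELOVL5 sequences hold TCTT, and the ACLY sequence does not. For the acceptor pairs of ACLY and ACSL4, pyrimidines made up 70% and 62% of the 50 bases before the first acceptor. Of all acceptors, 88.4% and 62.1% had the same share or less. The letters were not counted there in 100 bases, but the printed ACLY acceptor sequence holds CTCTCT and the ACSL4 one holds TCTT. A match describes letters and is not evidence of binding.

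The mitochondrial pathway of fatty acid synthesis, which supplies lipoate, had 7 of 8 genes tested and 0 called in edgeR, DESeq2 or limma-voom, and 3 had an unadjusted p under 0.05 in edgeR (the condensing enzyme OXSM, the reductase subunit HSD17B8, and AASDHPPT), against 19.2% of all genes. OXSM was at 44.5 ± 5.71 against 58.2 ± 3.07 CPM (adjusted p = 0.0726), HSD17B8 at 33.2 ± 3.56 against 26.7 ± 2.78 CPM (0.260), and MECR at 3.91 ± 2.73 against 7.49 ± 2.88 CPM (0.293).

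Of 19 genes that regulate the pathway through SREBP, LXR, MLX and AMPK, 12 were tested, 2 were lower and 0 higher (3.19% and 2.36% of all genes). SREBF1 was below the count filter. INSIG1, which holds SREBP in the endoplasmic reticulum and is itself a target of SREBP, had 14, 20, 24 and 28 counts after PTBP1 KD and 39, 67, 37 and 58 in controls. The groups did not overlap, at 13.9 ± 3.90 against 32.1 ± 9.29 CPM, with log2 fold change -1.20 and SE 0.25 (adjusted p = 0.0152 in edgeR). Without shPTBP1 replicate 2 or shControl replicate 4 the adjusted p was 0.0506 or 0.0526.

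MLX, the partner of the glucose-sensing factors MondoA and ChREBP, had 74, 34, 40 and 35 counts after PTBP1 KD and 90, 83, 74 and 69 in controls. The edgeR call was lower (log2 fold change -0.77, adjusted p = 0.0448). It rested on 1 retained-intron transcript, MLX-206, with 49, 0, 0 and 0 counts after PTBP1 KD and 62, 54, 38 and 50 in controls. The other MLX transcripts together were at 21.1 ± 3.97 against 17.96 ± 4.75 CPM by library total, without TMM scaling (exact permutation p = 0.343). With protein-coding transcripts only, the log2 fold change of MLX was 0.29 (adjusted p = 0.527 in edgeR). Leaving out any single library except shPTBP1 replicate 1 raised the adjusted p above the threshold, to between 0.0691 and 0.134. MBTPS1, the site-1 protease that cuts SREBP, was at 62.2 ± 9.70 against 82.4 ± 8.34 CPM (adjusted p = 0.0747 in edgeR).

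**Figure D4:**
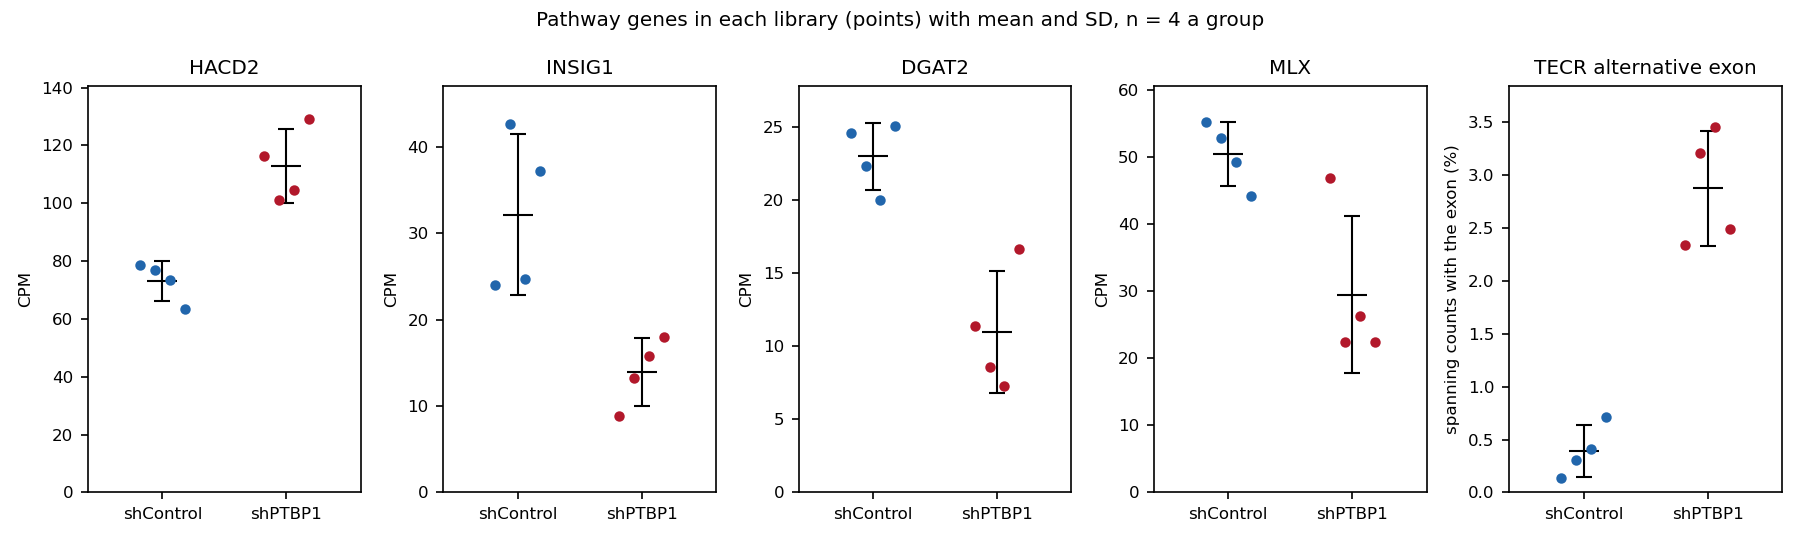
Levels of HACD2, INSIG1, DGAT2 and MLX in CPM and the share of spanning TECR counts with the extra exon in percent (vertical axes, from 0), with 1 point per library and the mean and SD of 4 libraries a group. The groups overlap for MLX, where shPTBP1 replicate 1 is at 46.8 CPM, and not in the other panels.

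Of 23 genes that esterify fatty acids into glycerolipids, 13 were tested, 1 was lower and 0 higher (3.19% and 2.36% of all genes). DGAT2, which makes triacylglycerol, had 18, 13, 11 and 26 counts after PTBP1 KD and 40, 35, 30 and 39 in controls. The groups did not overlap, at 10.97 ± 4.16 against 23.0 ± 2.31 CPM, with log2 fold change -1.06 and SE 0.24 (adjusted p = 0.0205 in edgeR). Without shPTBP1 replicates 2 or 3 the adjusted p was 0.0751 or 0.0720, and without shControl replicates 1 or 4 it was 0.0518 or 0.0626. GPAT4, of the first acylation, was at 8.22 ± 2.63 against 13.2 ± 4.67 CPM (adjusted p = 0.280 in edgeR), and AGPAT2, of the second, at 73.5 ± 4.62 against 101 ± 30.6 CPM (0.158). Of the 13 genes, 10 had a log2 fold change below 0 and 3 above. The groups did not overlap for 4 of the 13, against 12.7% of all genes. These were DGAT2 and AGPAT5, lower, and LPCAT2 and LCLAT1, higher. In edgeR the adjusted p was 0.222 for AGPAT5, 0.0978 for LPCAT2 and 0.133 for LCLAT1.

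Beta oxidation, which breaks fatty acids down, had 22 of 26 genes tested, with a median log2 fold change of -0.03. In edgeR, DESeq2 or limma-voom 0 were called. An unadjusted p under 0.05 in edgeR was reached by 3 genes, HADHB and ACADM above 0 and HSD17B4 below, against 19.2% of all genes. HADHB was at 357 ± 23.8 against 306 ± 6.01 CPM (edgeR adjusted p = 0.0631). ACADM was at 221 ± 10.1 against 186 ± 12.7 CPM (0.0683), and in both the groups did not overlap. ECI1 was at 40.7 ± 4.79 against 31.0 ± 9.90 CPM (adjusted p = 0.314), and the peroxisomal enzyme HSD17B4 at 75.1 ± 7.66 against 94.4 ± 10.5 CPM (0.0978).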

How the data were processed

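The authors prepared nanopore cDNA libraries from total RNA, mapped the reads to hg38 with minimap2, kept those above a mapping quality limit, and counted transcripts with StringTie; tool versions and the annotation are not given in the sources used here. The deposited transcript counts are whole numbers without normalization. A second deposited table, named TPM, holds CPM values, the count of each transcript per 1000000 counts of its library without division by length. From it, 100% of the values came out as whole counts (tolerance 0.01), and edgeR on these counts called 421 genes.

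Here, transcripts were joined by identifier, without version, to GENCODE version 44 (252562 of 254070 matched; the 1508 others, 0.0876% to 0.115% of each library's counts, stayed out of gene sums) and summed per gene. Groups and replicate numbers came from the labels; every count column was matched to a sample. Gene sums were filtered with filterByExpr (minimum count 10), scaled by TMM and tested with edgeR 4.0.16 (R 4.3.3), with the group as the only term and Benjamini-Hochberg adjustment over all 7597 genes. Isoforms were tested with diffSpliceDGE, since IsoformSwitchAnalyzeR was not used here. Exact permutation tests were two-sided, and limma 3.58.1 and DESeq2 1.42.0 gave alternatives. The scripts were tested on simulated data. Between libraries of a group, squared differences were 2.03 to 3.73 times counting error, so that none is a copy of another. Intervals of log2 fold changes include the spread between libraries; the binomial interval and the limit set by a count of 0 (taken as 3 counts) include counting error alone, and PCR reads are not independent molecules.

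The 10 genes, the related lists and the tests were chosen with earlier results of these data known. All 10 genes are named; of each related list, the called genes are named and, where fewer than 3, those of largest absolute log2 fold change up to 3. AASDHPPT, HADHB, ACADM, AGPAT5, LPCAT2, LCLAT1, TECR, PECAM1, LYZ and FEN1 were named after their values were seen. Values of 1 gene of beta oxidation and of 1 marker are not reported here. Levels are in CPM after TMM scaling, except those of the other MLX transcripts, with the SD over 4 libraries. Sequences are from hg38.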

Additional observations from a re-analysis of the deposited data

Results flagged for a closer look

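Of 82 groups of 4 libraries examined, 4 had 1 library whose gap to the nearest other, divided by the range of the group, exceeded Dixon's 95% critical value. For normal values chance gives about 1 in 20. That rate does not hold for shares where all other libraries tie, as for ACACA-245 and FASN-201, since any differing library then exceeds the value. MLX was at 46.8 CPM in shPTBP1 replicate 1 and at 22.4 to 26.3 CPM in the other shPTBP1 libraries. ACACA-245 took 70% of ACACA counts in shControl replicate 1 and 0 in the other controls. FADS2-209 took 33.3% of FADS2 in shPTBP1 replicate 4, from 5 of 15 counts, and 0 to 5.26% in the others. FASN-201 took 91.7% of FASN in shPTBP1 replicate 3, from 11 of 12 counts, and 100% in the others.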

How the results depend on the processing

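HACD2 stayed past the threshold in every alternative and with each library left out, and ACLY, ACACA, SCD, FADS1, FADS2, ELOVL1 and ACSL4 in none that gave an adjusted p. The number of the 10 genes called was 0 in limma-trend on log2(CPM + 1) and on log2(CPM + 5), and 0 to 1 with 1 library left out. With 1 library left out, 184 to 358 genes and 42 to 54 isoforms were called over the whole table, 0 to 3 regulators, 0 to 1 glycerolipid genes, 0 to 1 genes of mitochondrial synthesis, and 0 to 1 of beta oxidation. Isoform calls were 99 with no minimum change and 155 with limma's diffSplice. A minimum mean of 50 counts gave 1 gene of mitochondrial synthesis, 0 of glycerolipid synthesis and 1 of beta oxidation; protein-coding transcripts only gave 1 regulator and 2 of beta oxidation; DESeq2 gave 0 of glycerolipid synthesis, where DGAT2 was 1 of 8 named genes without an adjusted p; and leaving out all-or-none transcripts, chosen after seeing the data, gave 2 other synthesis genes, 2 of glycerolipid synthesis and 2 of beta oxidation. The MLX log2 fold change turned to 0.29 with protein-coding transcripts only and 0.28 without all-or-none transcripts. Where they turned sign, share differences with 1 library left out ran from -1.26 to 2.65 percentage points for ACLY-201, -0.66 to 8.37 for ACSL4-202, -6.37 to 3.63 for ACSL4-213, -0.52 to 0.22 for ELOVL1-201, -0.080 to 10.2 for FADS2-202 and -1.31 to 9.80 for FADS2-209, and -7.33 to 2.32 for the ACSL4 acceptor. The cause was not tested.

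Same-numbered libraries did not deviate together (correlations -0.0328 to 0.00889), so no pairing by number was seen, and these values cannot exclude one. A fit that took the replicate number as a block called 323 genes. It gave the HSD17B4 transcript an adjusted p of 0.0816 in diffSpliceDGE, and no other call described here changed. Depth limits FASN, ELOVL6, ACACA and the isoforms of FADS2, which rest on few counts a library.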
